A study of Mus musculus with 14 samples.

Results

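The slow fibre contractile genes encode proteins that build or regulate the contractile apparatus of slow-twitch, type I muscle fibres, and the calcium pump of their sarcoplasmic reticulum. They were the genes whose symbol in the deposited count and FPKM tables was Myh7, Myh7b, Myl2, Myl3, Tnnt1, Tnni1, Tnnc1, Tpm3, Atp2a2 or Csrp3. This rule uses no measured value, although the members were chosen with earlier results of these data known. The members were 10 of the 54532 genes in the count table, and all 10 were among the 15458 genes that passed the filter on low counts.

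A muscle fibre contracts when calcium from the sarcoplasmic reticulum binds troponin, tropomyosin moves on the thin filament, and the heads of myosin pull on actin. Slow and fast fibres assemble this machinery from different members of the same gene families, so that heavy chains, light chains, troponins, tropomyosins and calcium pumps have slow and fast versions. The mouse soleus is rich in slow fibres, the mouse gastrocnemius consists largely of fast fibres, and several slow genes are also the main versions in the ventricle of the heart.

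RNA-seq was carried out on polyadenylated RNA of skeletal muscle from male FVB/N mice, to examine endothelial c-Myc overexpression under a control diet (CTD) or a high-fat western diet (WD). EC-Myc OE mice combined a Tet-O-Myc transgene, which encodes human c-Myc, with a Cdh5-tTA transgene, in which an endothelial promoter drives the transactivator. Control (CT) mice were littermates with Tet-O-Myc and without tTA. Expression was switched on by stopping doxycycline at 4 to 6 weeks of age. CT-CTD and CT-WD were CT mice on CTD and WD, with 3 libraries each, and OE-CTD and OE-WD were EC-Myc OE mice on CTD and WD, with 4 libraries each. Each diet was given for 20 weeks, and the ages at harvest were not given.

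The methods of the study name soleus and gastrocnemius, whereas the labels say skeletal muscle and do not say which muscle a library came from or whether muscles were pooled. Sample numbers per diet in the text of the study do not match the labels, which were followed here. Weeks on diet are the same in the labels and the methods of the study, while its results give fewer for the transcriptome. Exchanging the names CT-WD and OE-CTD would make the sample numbers per diet match the text of the study. Comparisons of genotypes would then become comparisons of diets, and the reverse, while the value of each library would stay as it is. The numbers in the sample names of CT-WD lie next to the ones of CT-CTD. Since CT mice were littermates of EC-Myc OE mice, adjacent numbers do not show genotype, and the names cannot decide this. The labels do not state that libraries of a group came from separate animals. The names of OE-CTD 1 to 3 share a number of unstated meaning, and those of all 4 OE-WD libraries share another. In chi-square per degree of freedom between pairs of replicates, where 1 is sampling noise, OE-CTD 1 to 3 gave 7.75 to 10.5 with each other and 36.3 to 42.4 with OE-CTD 4. OE-WD 1 to 3 gave 8.46 to 15.1 with each other and 38.4 to 42.4 with OE-WD 4, whose name has the same number, and CT pairs gave 16.5 to 50.3. Libraries 1 to 3 of each EC-Myc OE group were thus closer to each other than CT replicates were, and whether they are separate animals cannot be told from this. The p-values therefore measure the spread between these libraries, which may be technical.

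Libraries had summed counts of 24101226 to 25054855 in CT-CTD and 21833839 to 26518734 in CT-WD. Those of EC-Myc OE had 22083340 to 28519159 in OE-CTD and 22033140 to 27698046 in OE-WD. The members took 0.487 to 0.727% of these counts. The lowest count of any member in any library was 1054, for Myh7b, so that counting error was small beside the spread between libraries. OE-CTD 4 and OE-WD 4 stood apart from the rest. Their TMM scaling factors were 0.888 and 0.899, against 0.945 to 1.07 in the other libraries, and mitochondrially encoded genes took 14.9 and 14.5% of their counts, against 9.66 to 12.8%. Values without both libraries, an alternative chosen after seeing the data, are given beside the results on Myh7 and Atp2a2.

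The tissue label was checked against defining genes. Skeletal muscle markers were abundant, with a mean of 30565 FPKM for Acta1, the skeletal actin, and 5041 FPKM for Ckm, the muscle creatine kinase. Of the heart markers, the atrial light chain Myl7 had no counts in any of the 14 libraries and the natriuretic peptide gene Nppa averaged 0.0284 FPKM. The other heart myosin, Myh6, was present at a mean of 31.5 FPKM. Of the same heart list, Actc1 averaged 19.3 FPKM, Myl4 1.31 FPKM (110 to 159 counts) and Tnnt2 0.667 FPKM (73 to 168 counts).

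Per length, slow genes were a small part of a fast muscle profile. Mean FPKM over the 14 libraries was highest for the slow light chain Myl3 (400.2 ± 51.9, SD), followed by troponin C Tnnc1 (367 ± 39.0) and the light chain Myl2 (320.4 ± 39.0). Next came the calcium pump Atp2a2 (284 ± 47.2), troponin T Tnnt1 (265 ± 38.1), tropomyosin Tpm3 (169 ± 17.2) and the heavy chain Myh7 (153 ± 31.0). The lowest were the Z-disc protein Csrp3 (104 ± 68.2), troponin I Tnni1 (94.8 ± 14.3) and the second heavy chain Myh7b (10.2 ± 1.52). Tnnt1 was above Tpm3 and Tnni1 above Myh7b in all 14 libraries, whereas Csrp3 was above Tnni1 in 6, and the other neighbours kept their order in 10 to 13 libraries. All neighbours in this order differed by less than the sum of their SDs, except Tnnt1 from Tpm3 and Tnni1 from Myh7b.

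Each slow gene was set beside its fast counterpart as a percent of the summed FPKM of the pair in a library. Myh7 made up between 1.005 and 2.15%, median 1.80%, of Myh7 plus the fast heavy chain Myh4. The slow share was higher for the light chains, with Myl3 between 9.56 and 16.0%, median 13.9%, beside Myl1, and Myl2 between 3.47 and 5.97%, median 5.21%, beside Mylpf. Tpm3 was between 4.49 and 7.73%, median 6.71%, beside Tpm1. Troponin T and troponin I were low, with Tnnt1 between 1.91 and 3.01%, median 2.45%, beside Tnnt3, and Tnni1 between 1.58 and 2.68%, median 2.19%, beside Tnni2. Atp2a2 was between 1.97 and 3.497%, median 2.98%, beside the fast pump Atp2a1. In these 7 pairs the fast gene was the larger in every library. Troponin C gave no usable ratio, because fast Tnnc2 was listed at only 0.347 to 2.04 FPKM (6 to 38 counts). Of the 800 exon bases of Tnnc2, 592 (74.0%) overlap Ube2c on the opposite strand, which had 28 to 144 counts.

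**Figure D1:**
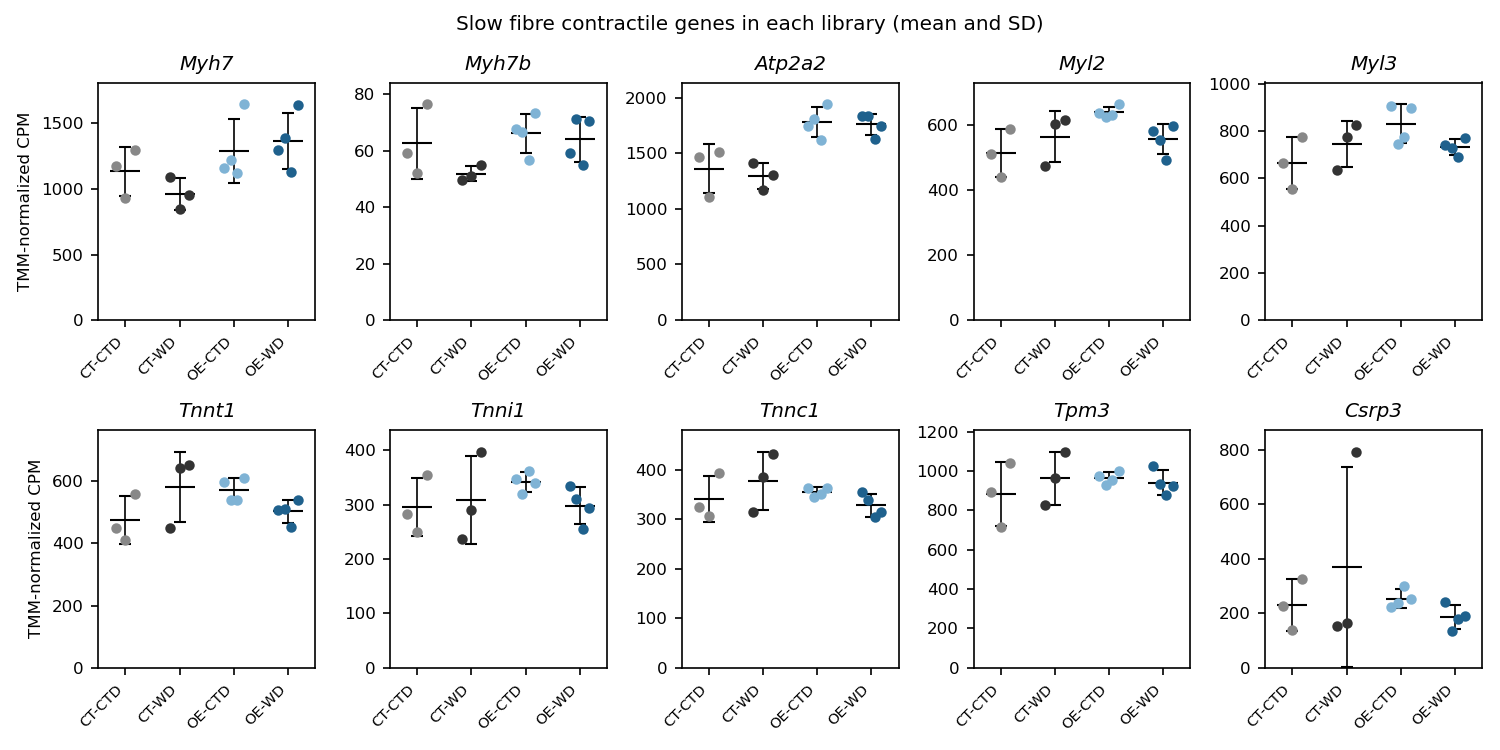
TMM-normalized CPM (read counts relative to the scaled library size, y axis from 0) of the 10 slow fibre contractile genes in each library by group (x axis), with points for libraries and bars for the mean and SD of 3 or 4 libraries. Atp2a2 was higher in each of the 8 EC-Myc OE libraries than in each of the 6 CT libraries, and 1 CT-WD library was high in Csrp3. The share of all tested genes separated like Atp2a2 was not counted.

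No member passed the threshold of adjusted p under 0.05 in any comparison by edgeR's quasi-likelihood test with Benjamini-Hochberg adjustment over all tested genes, and DESeq2 called 1 member, Atp2a2, in each comparison of genotypes, where it called 5.49% of all tested genes on CTD and 4.02% on WD. On CTD, EC-Myc OE against CT, edgeR called 0 of 10 members, where 2.67% of all tested genes were called. This share of all tested genes that met the same rule is given as the background of each count of members, and lists of other genes are set beside the same shares. At an unadjusted p under 0.05 it gave 3 members (Myl2, Myl3 and Atp2a2, all higher; background 15.9%), with a fold change over 1.5 in addition it gave 0 (background 7.12%), and 2 members, Myl2 and Atp2a2, did not overlap between the groups (background 15.5%). On WD, EC-Myc OE against CT, 0 members were called by edgeR (background 0.725%) and 4 had an unadjusted p under 0.05 (background 16.9%). These were Myh7, Myh7b and Atp2a2, which were higher, and Csrp3, which was lower and the 1 member also past 1.5-fold (background 5.74%). Myh7 and Atp2a2 did not overlap between these groups (2 members, background 11.6%).

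For WD against CTD in CT mice, edgeR and DESeq2 called 0 members (background 0% by edgeR and 0.268% by DESeq2), and the edgeR counts were 0 at an unadjusted p under 0.05 (background 7.28%), 0 with over 1.5-fold (background 3.05%) and 0 without overlap (background 9.63%). DESeq2 gave 1 member, Tnnt1, at an unadjusted p under 0.05 (background 7.29%). In EC-Myc OE mice the same diets gave 0 members by edgeR and DESeq2 (background 0.00647% by each), 0 at an unadjusted p under 0.05 (background 4.2%), 0 with over 1.5-fold (background 1.37%) and 2 without overlap, Myl2 and Tnnt1, both lower on WD (background 4.08%). The interaction, which is the diet difference in EC-Myc OE minus that in CT, gave 0 members by edgeR and DESeq2 (background 0% by edgeR and 0.074% by DESeq2). At an unadjusted p under 0.05 it gave 2 by edgeR, Myl2 and Tnnt1 (background 5.92%), 3 by DESeq2 (background 5.99%), and 0 with over 1.5-fold by edgeR (background 2.7%). Limma on log2(FPKM + 1) called 0 members in each of the 5 comparisons (background 0 to 1.49%). With 10 members these counts lie within a few genes of the background shares, and nothing is read from them about the members as a list.

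The median log2 fold change of the 10 members was 0.20 (all tested genes -0.0007) for EC-Myc OE against CT on CTD, where 10 of 10 values were positive, and 6 of 10 without CT-CTD 2. On WD it was -0.03 (all tested genes 0.0056), with 3 of 10 positive, 7 of 10 when counts were scaled to library totals, 8 of 10 without CT-WD 3, 6 of 10 without OE-WD 3 and 5 of 10 without CT-WD 2. The diet medians were 0.13 (all tested genes 0.0071) in CT mice, 7 of 10 positive (5 to 8 when each library was left out), and -0.15 (all tested genes 0.0048) in EC-Myc OE mice, 1 of 10 positive (3 without OE-CTD 4 or OE-WD 3, 0 without OE-WD 4). Single libraries moved these medians, for genotype to between 0.08 without CT-CTD 2 and 0.39 without CT-CTD 3 on CTD, while on WD the lowest was -0.13, with CT-WD 1 left out, and the highest 0.12, with CT-WD 3 left out. For diet they lay between -0.03 without CT-WD 3 and 0.25 without CT-CTD 3 in CT, and between -0.17 and -0.10 in EC-Myc OE. The comparisons share libraries, since each group enters a comparison of diets and one of genotypes. In bulk muscle, fewer cells or fibres of a type and less RNA per cell cannot be told apart, which holds for each member.

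**Figure D2:**
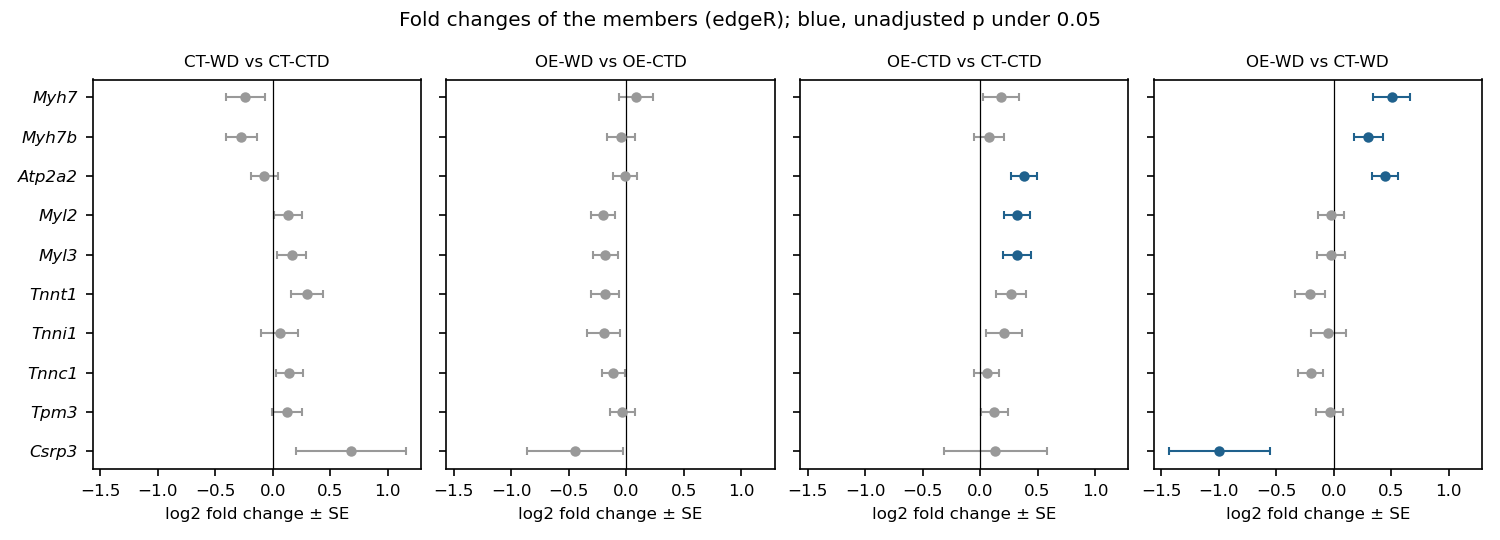
Log2 fold change ± SE (x axis) of the 10 members (y axis) in the diet and genotype comparisons, from edgeR. Blue points have an unadjusted p under 0.05, grey points do not, and no point has an adjusted p under 0.05.

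Myh7 (chr14:54970684-54994626, mm10, minus strand) encodes the slow, beta heavy chain of myosin, the motor of type I fibres. Its level in TMM-normalized CPM was 1176, 928 and 1298 in the CT-CTD libraries, 1088, 844 and 953 in those of CT-WD, 1156, 1223, 1125 and 1648 in those of OE-CTD and 1298, 1388, 1131 and 1639 in those of OE-WD. All 4 OE-WD libraries were above the 3 CT-WD libraries, while the groups on CTD overlapped, and the highest levels were in OE-CTD 4 and OE-WD 4. The log2 fold change of EC-Myc OE against CT was 0.50 ± 0.16 on WD (SE, edgeR adjusted p = 0.137, 0.0297 to 0.396 over the alternatives) and 0.18 ± 0.16 on CTD (edgeR adjusted p = 0.638). On WD the adjusted p passed the threshold without CT-WD 1 (0.0475) and without the filter on low counts (0.0297). Without OE-CTD 4 and OE-WD 4 the fold changes were 0.40 on WD and 0.04 on CTD. Of the 50-base words in Myh7 transcripts, 15.6% also occur in Myh6, which had 3348 to 6192 counts against 17476 to 40798 for Myh7, so that reads in shared stretches could be split between them. On the opposite strand, Mhrt (2 to 25 counts) and Gm31251 (1 to 47 counts) overlap 484 and 523 exon bases of Myh7, and the strand setting of the counting was not given in the sources used here.

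As a share of the adult heavy chain FPKM (Myh7, Myh2, Myh1 and Myh4 summed), Myh7 was 1.49, 1.05 and 1.60% in CT-CTD and 1.46, 0.933 and 1.11% in CT-WD. The OE-CTD libraries had 1.79, 1.91, 1.65 and 1.73% and the OE-WD libraries had 1.71, 1.83, 1.62 and 1.59%. Every EC-Myc OE library lay above every CT library, except that OE-WD 4 at 1.59% was just under CT-CTD 3, and the means were 1.38% ± 0.287 (SD, n = 3), 1.16% ± 0.267 (SD, n = 3), 1.77% ± 0.109 (SD, n = 4) and 1.69% ± 0.107 (SD, n = 4). On WD, EC-Myc OE exceeded CT by 0.524 percentage points and on CTD by 0.393, each with p = 0.0286 by a two-sided exact permutation test, the smallest p that 4 against 3 libraries allow, and an adjusted p of 0.0571 over the 4 comparisons. The CTD difference was 0.230 without CT-CTD 2. Diet differences were -0.214 points in CT (exact permutation p = 0.400, where 3 against 3 libraries cannot go below 0.10) and -0.0820 in EC-Myc OE (exact permutation p = 0.314). Leaving out single libraries moved them to between -0.377 (without CT-CTD 2) and -0.0979 (without CT-WD 2) in CT, and between -0.129 (without OE-WD 2) and -0.0358 (without OE-CTD 2) in EC-Myc OE. In each of the 3 pairs of same-numbered CT libraries the share was lower on WD, with a paired p of 0.250, the smallest that 3 pairs allow. The CPM of Myh7 and Myh7b was likewise lower on WD in all 3 pairs (2 of 10 members, background 14.9%), with adjusted p-values of 0.615 and 0.611 by edgeR with a replicate block. In EC-Myc OE the Myh7 share was lower on WD in each of the 4 pairs of the same number. Its paired p was 0.125, the smallest that 4 pairs allow, and these libraries were not taken as paired. Myh4 made up 85.1 to 91.9% of the sum, Myh1 4.43 to 7.78% and Myh2 2.73 to 5.93%. The share of the fast chain Myh2 was also higher in EC-Myc OE, at 4.92 to 5.93% against 2.73 to 4.52% on CTD and 4.13 to 4.84% against 2.73 to 4.01% on WD. That of Myh4 was lower, with means of 85.8 against 89.5% on CTD and 87.5 against 89.7% on WD. A higher share in EC-Myc OE was thus not particular to Myh7, and since shares sum to 100%, it need not mean more Myh7. These comparisons of Myh2 and Myh4 were chosen after the values were seen and carry no test.

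**Figure D3:**
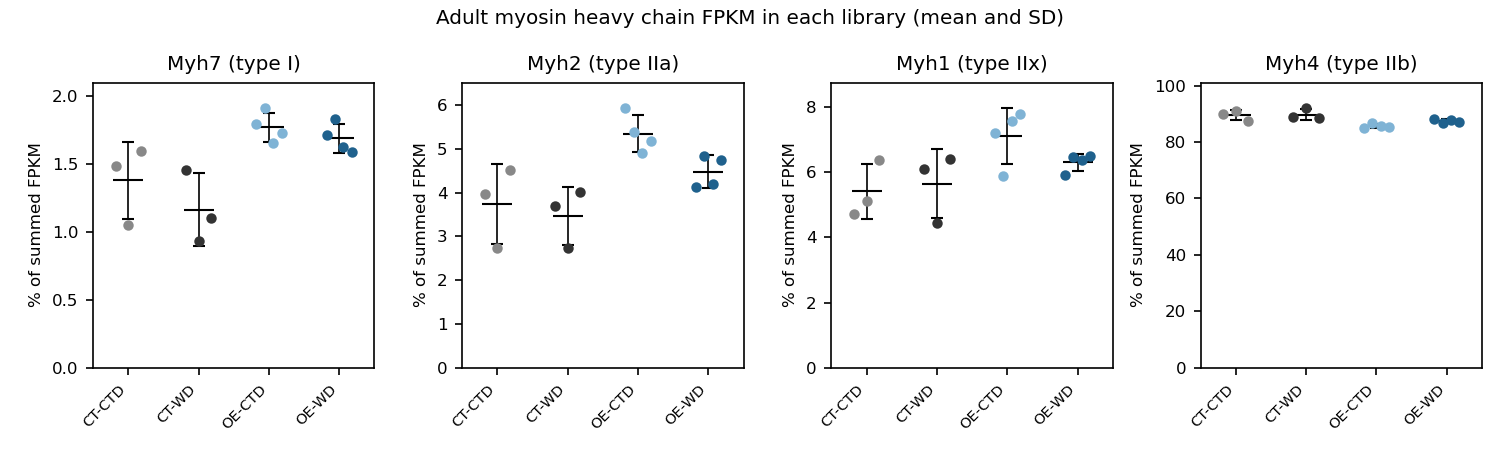
Percent of the summed FPKM of the adult myosin heavy chains (y axis from 0, a scale for each gene) in each library by group (x axis), with points for libraries and bars for mean and SD. Myh7 lies between 1.59 and 1.91% in EC-Myc OE and between 0.933 and 1.60% in CT.

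Myh7b, a second slow-type heavy chain gene that hosts a muscle miRNA, had a TMM-normalized CPM of 59.2, 52.2 and 76.6 in the CT-CTD libraries, 49.8, 50.9 and 55.1 in those of CT-WD, 67.8, 66.7, 56.7 and 73.4 in those of OE-CTD and 59.2, 71.3, 55.0 and 70.5 in those of OE-WD. The CT-WD libraries were low, with the OE-WD library lowest in Myh7b just under the highest of them. Its log2 fold change on WD, EC-Myc OE against CT, was 0.30 ± 0.13 (SE, unadjusted p = 0.0337 and adjusted p = 0.255 by edgeR, 0.230 to 0.498 over the alternatives). The unadjusted p was no longer under 0.05 without CT-WD 1, CT-WD 2, OE-WD 2 or OE-WD 4. It was also lost with the replicate block, where the value was 0.25, and without OE-CTD 4 and OE-WD 4 together (0.25). Trpc4ap on the opposite strand shares 37 exon bases with Myh7b and had 3181 to 4559 counts, above the 1054 to 2034 counts of Myh7b.

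Atp2a2 (chr5:122453513-122502225, mm10, minus strand) encodes SERCA2, the calcium pump of the sarcoplasmic reticulum in slow fibres, which is also present in heart and, as a longer form, in most other cell types. Its TMM-normalized CPM was 1468, 1110.2 and 1507 in the CT-CTD libraries, 1411, 1172 and 1306 in those of CT-WD, 1746, 1810.1, 1618 and 1942 in those of OE-CTD and 1832, 1835, 1632 and 1748 in those of OE-WD. Each of the 8 EC-Myc OE libraries was above each of the 6 CT libraries, on either diet. The share of all tested genes with this separation over both diets was not counted. Within a diet, the genotypes did not overlap for 11.6% of all tested genes on WD and 15.5% on CTD. The log2 fold change of Atp2a2, EC-Myc OE against CT, was 0.44 ± 0.11 on WD (SE, unadjusted p = 0.00132 and adjusted p = 0.0786 by edgeR) and 0.39 ± 0.11 on CTD (unadjusted p = 0.00374 and adjusted p = 0.0881 by edgeR). DESeq2 gave adjusted p-values of 0.00803 and 0.0197, which pass the threshold, and over the alternatives the range was 0.00803 to 0.296 on WD and 0.0197 to 0.358 on CTD. On WD it also passed by edgeR without CT-WD 1 (adjusted p = 0.0220) and without the filter on low counts (0.0279). Without OE-CTD 4 and OE-WD 4 the fold changes were 0.44 on WD and 0.34 on CTD. The diet by genotype interaction was 0.06 ± 0.16 (edgeR adjusted p = 0.974).

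Endothelial and tendon markers are given here because Atp2a2 is also present in cells other than muscle fibres. The 8 endothelial genes, all tested and with none at 0 counts, had a summed FPKM of 69.7, 69.0 and 70.4 for CT-CTD, 82.3, 74.3 and 74.1 for CT-WD, 89.7, 92.2, 85.8 and 79.0 for OE-CTD and 92.5, 94.2, 97.4 and 93.3 for OE-WD, with Cdh5 the most abundant. Every EC-Myc OE library exceeded every CT library of the same diet in this sum. Fold changes, medians and counts of genes in this paragraph compare EC-Myc OE with CT within a diet. Of the 8 endothelial genes, Cdh5 was higher in EC-Myc OE on WD (0.46 ± 0.09, edgeR adjusted p = 0.0322, background 0.725%) and Tek on CTD (0.52 ± 0.11, edgeR adjusted p = 0.0232, background 2.67%). At an unadjusted p under 0.05, 6 of 8 were higher in EC-Myc OE on WD (background 16.9%) and 5 of 8 on CTD (background 15.9%), where the background counts either direction. The list median was 0.38 on WD and 0.30 on CTD. The transactivator of EC-Myc OE mice is driven by the Cdh5 promoter. The 7 tendon genes, none at 0 counts and Fmod the most abundant, had a summed FPKM of 84.0, 38.3 and 59.3 for CT-CTD, 172, 31.1 and 39.2 for CT-WD, 145, 216, 179.8 and 114 for OE-CTD and 147, 305, 199.97 and 111 for OE-WD, with 0 called by edgeR and medians of 1.25 and 1.26. On CTD the tendon sums of the genotypes did not overlap, whereas on WD CT-WD 1 lay above OE-WD 1 and OE-WD 4. Groups did not overlap for 5 of 7 tendon genes on CTD (background 15.5%) and 0 of 7 on WD (background 11.6%), and for 4 of 8 endothelial genes on each diet. For tendon genes, 1 of 7 on WD (background 16.9%) and 4 of 7 on CTD (background 15.9%) had an unadjusted p under 0.05. Their part in the result was not tested.

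Myl2 and Myl3 encode the regulatory and the essential light chain of slow myosin. Myl2 (chr5:122100951-122113472, mm10, plus strand) had a TMM-normalized CPM of 510.4, 439 and 587 in the CT-CTD libraries, 472, 602 and 615 in those of CT-WD, 635, 625, 631 and 663 in those of OE-CTD and 579.8, 553, 492 and 596 in those of OE-WD. The 4 OE-CTD libraries were high and close together, above each CT-CTD and each OE-WD library. Its log2 fold change on CTD, EC-Myc OE against CT, was 0.32 ± 0.11 (SE, unadjusted p = 0.0128 and adjusted p = 0.165 by edgeR, 0.0955 to 0.511 over the alternatives), and that of WD against CTD in EC-Myc OE was -0.20 ± 0.10 (edgeR adjusted p = 0.9999). Without CT-CTD 2 the value on CTD was 0.22 and its unadjusted p was no longer under 0.05.

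Myl3 (chr9:110741861-110769798, mm10, plus strand) had a TMM-normalized CPM of 664, 553 and 775 in the CT-CTD libraries, 636, 773 and 824 in those of CT-WD, 905, 745, 773 and 898 in those of OE-CTD and 739, 727, 690.3 and 772 in those of OE-WD. OE-CTD libraries were high, although the lowest of them was under CT-CTD 3, so the groups overlapped. The log2 fold change on CTD was 0.32 ± 0.12 (SE, unadjusted p = 0.0172 and adjusted p = 0.193 by edgeR, 0.122 to 0.565 over the alternatives). It was 0.21 without CT-CTD 2, and its unadjusted p was no longer under 0.05 without that library or without OE-CTD 1. On WD, EC-Myc OE against CT gave -0.02 ± 0.11 for Myl2 and -0.02 ± 0.12 for Myl3, and both turned positive when counts were scaled to library totals. Pth1r on the opposite strand shares 95 exon bases with Myl3 and had 18 to 64 counts.

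The troponin complex makes the thin filament respond to calcium, with Tnnt1 binding tropomyosin, Tnni1 holding the filament off and Tnnc1 binding calcium. Tnnt1 (chr7:4504570-4516382, mm10, minus strand) had a TMM-normalized CPM of 451, 412 and 560.5 in the CT-CTD libraries, 451, 643 and 653 in those of CT-WD, 599.7, 541, 541 and 612 in those of OE-CTD and 509, 512, 454 and 540.0 in those of OE-WD. All 4 OE-WD libraries were below the 4 OE-CTD libraries by a narrow margin, while CT-WD 2 and CT-WD 3 were the highest libraries and CT-WD 1 was low. Its log2 fold change was 0.30 ± 0.14 for WD in CT mice (SE, unadjusted p = 0.0508 and adjusted p = 0.682 by edgeR) and -0.19 ± 0.12 for WD in EC-Myc OE mice (edgeR adjusted p = 0.9999). The interaction was -0.48 ± 0.18 (unadjusted p = 0.0191 and adjusted p = 0.834 by edgeR, 0.235 to 0.999 over the alternatives), so a difference between the diet responses did not pass the test. Its unadjusted p was no longer under 0.05 without CT-CTD 2, CT-WD 2 or CT-WD 3, and the value for WD in CT mice was 0.45 without CT-WD 1.

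Tnni1 ranged from 237 to 397 CPM and Tnnc1 from 306 to 433 CPM, and for each the groups overlapped in all 4 comparisons of groups. CT-WD 3 was the highest library for both. Tpm3, the slow tropomyosin, ranged from 718 in CT-CTD 2 to 1100.0 CPM in CT-WD 3, again with overlapping groups. The unadjusted p of these 3 genes was above 0.05 by edgeR in all 5 comparisons. Of the 50-base words of Tpm3, 23.2% also occur in Tpm3-rs7, which had 625 to 1109 counts. OE libraries were close together for Tpm3, between 877 and 1026 CPM. The Tpm3 count is for the whole gene, with 2 annotated starts, 2 and 6872 bases from the gene start of the count table. Its share beside Tpm1 is likewise for the whole gene and need not be that of a slow fibre form.

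Csrp3 (chr7:48830398-48848033, mm10, minus strand), or muscle LIM protein, is a mechanosensing protein of the Z-disc that is abundant in heart and slow muscle. Its TMM-normalized CPM was 227, 137 and 328 in the CT-CTD libraries, 152, 163 and 794 in those of CT-WD, 222, 237, 301 and 252 in those of OE-CTD and 242, 136, 177 and 189 in those of OE-WD. A single library, CT-WD 3, was far above the others, and the ratio of highest to lowest library was 5.85, against 1.42 to 1.95 for the other 9 members. On WD, EC-Myc OE against CT gave a log2 fold change of -0.99 ± 0.44 (SE, unadjusted p = 0.0400 and adjusted p = 0.270 by edgeR, 0.0461 to 0.819 over the alternatives). Without the filter on low counts the edgeR adjusted p was 0.0461. Its unadjusted p was no longer under 0.05 without CT-WD 3, OE-WD 2, OE-WD 3 or OE-WD 4. The same held with DESeq2, with limma, with only the groups compared and with the replicate block. By limma on log2(FPKM + 1) the fold change was -0.56. Without CT-WD 3 the fold change was 0.24, with the opposite sign. Likewise, WD against CTD in CT mice went from 0.68 to -0.55 and the interaction from -1.13 to 0.10 when that library was left out.

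CT-WD 3 was also high in some other genes that slow or stressed muscle is known to express, here in FPKM. It was the highest of the 14 libraries in 5 of 10 further slow genes, 4 of 19 regulators and 2 of 5 satellite cell and myogenic genes, and the lowest in 0, 1 and 1 of them (all tested genes 13.7% highest and 13.5% lowest). It was also the lowest in 4 of 7 tendon genes and 4 of 8 adipocyte genes, and the highest in none of them. The small heat shock protein Cryab stood at 1498 against 469 to 791 in the other 13 libraries, and Fhl1 at 911 against 439 to 731. Rcan1, a target and regulator of calcineurin, stood at 174 against 45.5 to 96.4, and the myogenic factor Myog at 56.2 against 4.25 to 13.9. Ankrd2 (531 against 139 to 328) and Lmod2 (329 against 135 to 172) were chosen after their values were seen. Others did not follow, such as Casq2 (11.1 against 10.3 to 19.4) and Ppargc1b (1.01 against 0.837 to 3.05), also chosen after their values were seen. Their part in the result was not tested.

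Across the 14 libraries the members fell into sets by the Pearson correlation of their log2 CPM. These sets were chosen after the values were seen and carry no test, and all points share the libraries and their scaling. Myh7, Myh7b and Atp2a2 correlated with each other at 0.70 to 0.84 (3 pairs). The light chains, troponins and Tpm3 correlated at 0.67 to 0.93 (15 pairs), whereas pairs between the sets gave -0.18 to 0.55 (18 pairs). Csrp3 gave -0.06 to 0.11 with the heavy chains and Atp2a2, and 0.51 to 0.79 with the other set. For Myh7 and Atp2a2, r was 0.84 in all 14 libraries, 0.91 in the 6 CT libraries and 0.68 in the 8 EC-Myc OE libraries, and 0.87 without OE-CTD 4 and OE-WD 4. Within a genotype the pairs with Myh7b rested on few libraries. Without the 2 farthest libraries, r of Myh7b and Atp2a2 went from 0.63 to -0.13 in CT and from 0.75 to 0.22 in EC-Myc OE, and r of Myh7 and Myh7b from 0.78 to 0.39 in CT and from 0.74 to 0.60 in EC-Myc OE. Over the 14 libraries these pairs gave 0.78 and 0.77 without the 2 farthest. In the other set, Tnnt1 and Tnnc1 in EC-Myc OE went from 0.74 to 0.30. By contrast, Myh7 and Tnnt1 gave 0.05 over the 14 libraries.

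Of 12736 tested genes with a mean of at least 1 CPM, the gene most like the mean of the 10 members in log2 CPM over the 14 libraries was Myom3, an M-band protein of the sarcomere (r = 0.91). It was followed by Nelfe (0.90), Actn2 (0.89), Ttc9 (0.86), Zdhhc23 (0.86), Plbd1 (0.85), Myl10 (0.84), Rab15 (0.84), Smtnl1 (0.84) and Tpm3-rs7 (0.84). The Tpm3-rs7 sequence is shared in part with Tpm3, as given above. The lowest correlations were those of Kctd15 (-0.91), Ccdc39 (-0.84), Slc35b3 (-0.84), Rab10os (-0.83) and Zfp772 (-0.82). These genes were picked as the extremes of 12736 correlations over 14 libraries, so high values arise in part from the picking, and they carry no test. The mean of the members joins the sets given above, between which pairs correlated at only -0.18 to 0.55.

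Sequences were taken from RefSeq, on build GRCm38.p6. Promoters matched for 9 of the 10 members, the exception being Atp2a2, in 14 windows of 250 bases before an annotated start. The windows were searched on both strands for the E-box CANNTG, read by myogenic factors, for CATTCC, the M-CAT element read by TEAD factors, and for TATAAA, and no match overlapped a match of another motif. CANNTG was in 14 of 14 windows (66.2% of 32851 promoters of that length), CATTCC in 3 of 14, of Myh7, Myl3 and Tnnc1 (12.6% of promoters), and TATAAA in 2 of 14, of Myl2 and Tnnt1 (12.4%). The 14 windows are not separate, since the 2 windows of Myh7 overlap, as do the 2 of Tnni1, and share CANNTG matches. By member, CANNTG was found in 9 of 9, CATTCC in 3 and TATAAA in 2. The annotated starts lay 0 to 21817 bases from the gene start of the count table. The distance was 21817 bases for Myl3 and 407 for Tnnt1. For Myl2 it was 8227 and 7762 bases, the latter for the window with TATAAA, and both Myl2 windows lie in no annotated gene. A match is a description of letters and marks no binding site. The windows of Myh7 and Tnnc1 are shown because these genes lie in different correlation sets and their windows end at the gene start of the count table. The Myh7 window (chr14:54994627-54994876, minus strand) lies in no annotated gene and the Tnnc1 window (chr14:31208062-31208311, plus strand) lies in Nisch, which runs on the opposite strand, outside its exons. Capitals mark CANNTG and CATTCC, the latter also as its reverse complement.
Myh7: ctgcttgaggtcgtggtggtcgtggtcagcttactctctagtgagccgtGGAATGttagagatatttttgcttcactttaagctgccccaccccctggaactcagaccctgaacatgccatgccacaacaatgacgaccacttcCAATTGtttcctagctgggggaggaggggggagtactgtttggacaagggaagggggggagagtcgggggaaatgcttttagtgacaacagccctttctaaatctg
Tnnc1: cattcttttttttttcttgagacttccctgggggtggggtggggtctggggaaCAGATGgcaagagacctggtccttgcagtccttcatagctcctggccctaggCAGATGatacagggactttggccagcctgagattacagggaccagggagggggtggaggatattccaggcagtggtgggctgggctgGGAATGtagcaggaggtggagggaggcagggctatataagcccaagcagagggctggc

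Introns of the heavy chain genes hold miRNA genes, whose mature sequences are shown because members host them. Capitals mark the seed, bases 2 to 8, and the seeds are not identical. The miRNA in Myh7 lies at chr14:54975710-54975731 on the minus strand and that in Myh7b at chr2:155622893-155622913 on the plus strand, neither in an exon of its host. The hairpin of miR-208b had 0 to 6 counts and that of miR-499 had 0 counts in every library, and poly-A selected libraries of this kind are not made to measure mature miRNAs.
mmu-miR-208b-3p: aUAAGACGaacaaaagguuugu
mmu-miR-499-5p: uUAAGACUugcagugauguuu

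Other genes of the slow programme were counted in lists chosen with earlier results known, beside medians of -0.0007 (CTD) and 0.0056 (WD) for all tested genes in the comparisons of genotypes. Of all tested genes, edgeR called 2.67% on CTD and 0.725% on WD, and 15.9% and 16.9% had an unadjusted p under 0.05, in either direction. These shares are the background of the list counts for genotype below. Of 10 further genes known from slow or oxidative muscle, 1 rose on CTD, the Z-disc protein Pdlim1 (0.56 ± 0.11, edgeR adjusted p = 0.0155). At an unadjusted p under 0.05, 4 were higher on CTD (background 15.9%), and on WD 1 was higher and 1 lower (background 16.9%), with 0 called by edgeR on WD. Their median log2 fold change was 0.15 on CTD and -0.10 on WD, and Cryab (655 FPKM) and Fhl1 (593 FPKM) were the most abundant. For 6 oxidative genes, led by the oxygen carrier Mb (1558 FPKM) and the fatty acid carrier Fabp3 (1077 FPKM), the median was 0.17 on CTD and -0.04 on WD, and edgeR called 0, with 2 higher on CTD and 0 on WD at an unadjusted p under 0.05. Among 19 regulators of the slow programme, led by Vgll2 (112 FPKM) and Rcan1 (76.5 FPKM), edgeR called 0 in either comparison, and 3 were higher at an unadjusted p under 0.05 in each, with 2 lower on CTD. The 15 fast counterparts, led by Tnnt3 (10511 FPKM) and Atp2a1 (9646 FPKM), had medians of 0.01 on CTD and -0.09 on WD, with 0 called by edgeR and 1 and 2 lower at an unadjusted p under 0.05.

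In the same comparisons, muscle identity genes (8, median -0.08 on CTD and -0.07 on WD), developmental genes (5, -0.05 and 0.30), smooth muscle genes (6, 0.17 and 0.02), Schwann cell genes (7, 0.17 and 0.15) and red blood cell genes (4 of 5 tested, -0.03 and -0.09) had 0 genes called by edgeR. So had adipocyte genes (8, -0.21 and 0.53), macrophage genes (6, 0.84 and 0.19) and epidermal genes (7, 0.62 and 0.89). At an unadjusted p under 0.05, 5 of 6 macrophage genes were higher on CTD (background 15.9%), and no other of these 8 lists had more than 2 genes in either comparison. Of 4 tested heart markers, Actc1, which is also the actin of developing skeletal muscle, rose on CTD (1.38 ± 0.35, edgeR adjusted p = 0.0493). Of 5 satellite cell and myogenic genes, Myod1 fell on CTD (-0.69 ± 0.16, edgeR adjusted p = 0.0346). In the comparisons of diets and in the interaction, edgeR called 0 genes of any list, with 0 to 4 genes a list at an unadjusted p under 0.05. The background at that p was 7.28% for diet in CT, 4.2% for diet in EC-Myc OE and 5.92% for the interaction. For diet in EC-Myc OE, 3 of 10 further slow genes and 2 of 6 oxidative genes were lower on WD at that p, and 0 were higher. Their medians were -0.25 and -0.16 there, 0.05 and 0.07 for diet in CT, and -0.40 and -0.32 for the interaction. Medians of all tested genes were 0.0048, 0.0071 and -0.0057 in these comparisons.

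Gene length moved with some fold changes. Among genes with a mean of at least 32 CPM, the median log2 fold change of EC-Myc OE against CT on WD was -0.24 for genes of up to 1000 bases and 0.01 for those over 6000 bases, and the interaction medians were -0.23 and 0.06. On CTD they were 0.02 and -0.05. Myh7 (8616 bases), Myh7b (6634), Tpm3 (6085) and Atp2a2 (6081) were the longest members, and Tnnc1 (1041) the shortest. The part of length in the result was not tested.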

How the data were processed

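The authors deposited counts of reads for each of 54532 genes in 14 libraries, without normalization, and FPKM values, which set a count against the length of the gene and a total for the library. These totals were 79.9 to 98.0% of the summed counts, so the deposited FPKM include a scaling factor for each library. The submitters' processing notes name HISAT2 2.0.5, featureCounts 1.5.0-p3 and mm10. The strand setting was not given in the sources used here. Gene positions of the count table equalled those of GENCODE M21 for 53499 of 54409 shared identifiers.

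Counts were tested in R 4.3.3 with edgeR 4.0.16, using TMM normalization, filterByExpr (which removed 0.0467 to 0.0694% of counts of a library), 1 model with a term per group, the quasi-likelihood test and Benjamini-Hochberg adjustment over 15458 genes in each comparison. A standard error is the log2 fold change divided by the root of the F statistic. DESeq2 1.42.0, limma 3.58.1 on log2(FPKM + 1) and log2(FPKM + 0.1), other scalings, no filter, a replicate block and each library left out were alternatives. Levels are given as TMM-normalized CPM, and genes are compared with each other by FPKM. The model was tested on simulated data, and no outcome of that test is used here. Replicate libraries differed by more than sampling noise (chi-square per degree of freedom 7.75 to 50.3). Same-numbered CT libraries deviated together (r = 0.385, 0.123 and 0.203 across genes). From this check alone, values of these pairs are given for the Myh7 share and for the CPM of Myh7 and Myh7b. The other members are given by unpaired tests. With a replicate block, Tnnt1 gave 0.29 (edgeR adjusted p = 0.568) and Csrp3 0.48 (edgeR adjusted p = 0.773) for diet in CT mice. In OE-WD and OE-CTD r was 0.0711, 0.138, 0.142 and 0.338, and between genotypes the values were -0.23 to 0.05. Libraries of EC-Myc OE were not taken as paired because of the lowest of their values, although the others lay in the range of the CT pairs. Libraries of different genotypes were not taken as paired either.

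Named genes were the 10 members, their fast counterparts, the 2 most abundant genes and any called gene (at most 4) of each list, and the 10 genes most like and 5 least like the mean of the members. Outside this rule, genes that overlap a member or share sequence with it are named, as are Myl7, Nppa, Myl4 and Tnnt2 of the heart list and Ankrd2, Lmod2, Casq2 and Ppargc1b, which were chosen after their values were seen. The lists were fast counterparts, further slow genes, regulators of the slow programme, oxidative genes, muscle identity, developmental, heart, smooth muscle, endothelial, adipocyte, macrophage, Schwann cell, tendon, satellite cell, epidermal and red blood cell genes. Members and lists were chosen with earlier results of these data known.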

Additional observations from a re-analysis of the deposited data

How the results depend on the processing

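With alternatives to the processing, the number of members called by adjusted p changed in the comparisons of genotypes and stayed at 0 in the 2 comparisons of diets and the interaction, by edgeR, DESeq2 and limma. In OE-WD against CT-WD it was 0, and 1 with DESeq2 (Atp2a2; 4.02% of all tested genes called), 3 without the filter on low counts (Myh7, Atp2a2 and Csrp3; 2.01% of all genes) and 0 to 2 when each library was left out, with 2 without CT-WD 1 (9.47% of all genes). In OE-CTD against CT-CTD it was 0, and 1 with DESeq2 (Atp2a2; 5.49% of all genes). When each library was left out, members at an unadjusted p under 0.05 numbered 1 to 5 for genotype on CTD (11.6 to 17.9% of all tested genes), 2 to 5 on WD (10 to 26%), 0 to 4 for diet in CT (5.02 to 12.1%), 0 for diet in EC-Myc OE (3.11 to 6.42%) and 0 to 5 for the interaction (4.54 to 10.7%). Without CT-WD 1, 5 members on WD stood beside 26% of all genes and 4 for diet in CT beside 12.1%, and on CTD 1 member without CT-CTD 2 stood beside 11.8% and 5 without CT-CTD 3 beside 11.6%. With the replicate number as a block, 0 members were called in each comparison. The replicate block changed the sign of no member, while the genes called in OE-CTD against CT-CTD went from 413 to 687. Genes called over the whole table moved more, from 112 to between 4 and 1499 in OE-WD against CT-WD (1499 without CT-WD 1, and 4 with only the groups compared or without OE-WD 2), from 413 to between 77 and 799 in OE-CTD against CT-CTD (77 without CT-CTD 3, 799 with DESeq2), and to at most 93 from 0 and 5 from 1 for diet in CT and in EC-Myc OE and 29 from 0 for the interaction. The median of the members in OE-CTD against CT-CTD ranged from 0.080 to 0.39 when each library was left out. With library totals, the log2 fold changes in OE-WD against CT-WD became positive for Myl2 (0.026), Myl3 (0.023), Tnni1 (0.0054) and Tpm3 (0.015). Without OE-CTD 4 and OE-WD 4, chosen after seeing the data, Atp2a2 in OE-WD against OE-CTD became positive (0.036). None of these 5 values passed a test in either setting. Leaving out each library turned the sign of the following log2 fold changes, given as lowest to highest: in CT-WD against CT-CTD, Tnni1 -0.16 to 0.22, Tpm3 -0.0048 to 0.26, Atp2a2 -0.20 to 0.0076, Csrp3 -0.55 to 1.05. In OE-WD against OE-CTD the ranges were Myh7b -0.11 to 0.020, Atp2a2 -0.053 to 0.031, Myh7 -0.018 to 0.22. Those in OE-WD against CT-WD were Myl2 -0.13 to 0.047, Myl3 -0.13 to 0.055, Tnni1 -0.21 to 0.18, Tpm3 -0.13 to 0.069, Csrp3 -1.37 to 0.24, and in OE-CTD against CT-CTD they were Myh7b -0.037 to 0.25, Tnnc1 -0.015 to 0.17, Tpm3 -0.0043 to 0.26, Csrp3 -0.13 to 0.47. For the interaction they were Atp2a2 -0.022 to 0.18, Csrp3 -1.50 to 0.10. The Csrp3 range on WD rests on CT-WD 3. Leaving out mitochondrially encoded genes, also chosen after seeing the data, changed no call and no sign of a member. The cause of these shifts was not tested. The least abundant member had at least 1054 counts in each library, and the precision of the comparisons rests on groups of 3 and 4 libraries.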
